A study of Mus musculus with 2 samples.

Results

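The genes described here are Cdkn1b, which encodes the cyclin-dependent kinase inhibitor p27, and 9 genes of the machinery that degrades, exports or induces it: Skp2, Cks1b, Cks2, Skp1a, Cul1, Rbx1, Cops5, Rnf123 and Foxo3. They were picked by symbol, by a rule that uses no measured value but was drawn up with earlier results of these data known, and are 10 of the 18194 genes that have a probe set of their own on the array. The platform annotation lists Skp1a under its current symbol, Skp1. In all, 28 of the 45101 probe sets carried these symbols, of which 22 named a single gene and 6 also named a second symbol. All 10 genes were measured, which means that the brighter array reached a floor of 8.07 signal units, the median of all values of both arrays.

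RNA came from NIH3T3 cells, an immortalised line of mouse embryonic fibroblasts, grown in serum-containing DMEM. The CCR4b RNAi culture had been infected with a retrovirus expressing a short hairpin RNA (shRNA) against CCR4b, a deadenylase also called CNOT6L, and the control RNAi culture with a retrovirus expressing a control shRNA. The labels name neither the hairpins nor the time after infection. Both cultures thus carried an shRNA virus, and 1 Affymetrix mouse genome expression array stood for each. No replicate error and no p-value can be had from 1 array per group, so each ratio below describes this pair of cultures.

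The protein p27 binds cyclin-CDK complexes and holds cells in G1. Once CDK2 has phosphorylated it, p27 is recognised by SKP2, the substrate receptor of an SCF ubiquitin ligase, together with the small cofactor CKS1, and the ligase marks it for the proteasome. Regulation of p27 by SKP2 acts on the protein, whereas FOXO factors act on its gene and deadenylases on mRNAs. Published work on CCR4b depletion in NIH3T3 cells followed p27, so the comparison bears on the mRNAs of p27 and of its regulators.

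At a threshold of 1.5-fold, 3 of the 10 genes were lower after CCR4b RNAi (Cks1b, Cks2 and Cops5), against 14.6% of all 11915 measured genes, and 1 was higher (Foxo3), against 11.3% of all. At 2-fold, Cks1b and Cks2 remained on the lower side, 2 of 10 genes against 4.48% of all, and 0 were higher against 3.74% (8.22% of all in either direction). With quantile normalization and with loess correction neither CKS gene reached 2-fold, with log2 ratios between -0.92 and -0.89, so that the count was 0 of 10. The size of this imbalance depends on the scaling: with each array divided by its median, 19.0% of all genes were lower by 1.5-fold or more and 9.09% higher. The median log2 ratio of CCR4b RNAi over control RNAi was -0.21 over the 10 genes and -0.070 over all measured genes. Of the 20 single-gene probe sets that reached the floor in both cultures, 6 lay past 1.5-fold on the lower side and 4 on the higher side, against 14.7% and 11.4% of all 17516 such probe sets. Several of these probe sets read the same gene and are not independent. The genes did not move one way: the 2 CKS genes, the SCF scaffold and adaptor and Cops5 lay below 0, p27 and Foxo3 lay above it, the probe sets of Skp2 lay on both sides, and Rbx1 and Rnf123 lay close to it.

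**Figure D1:**
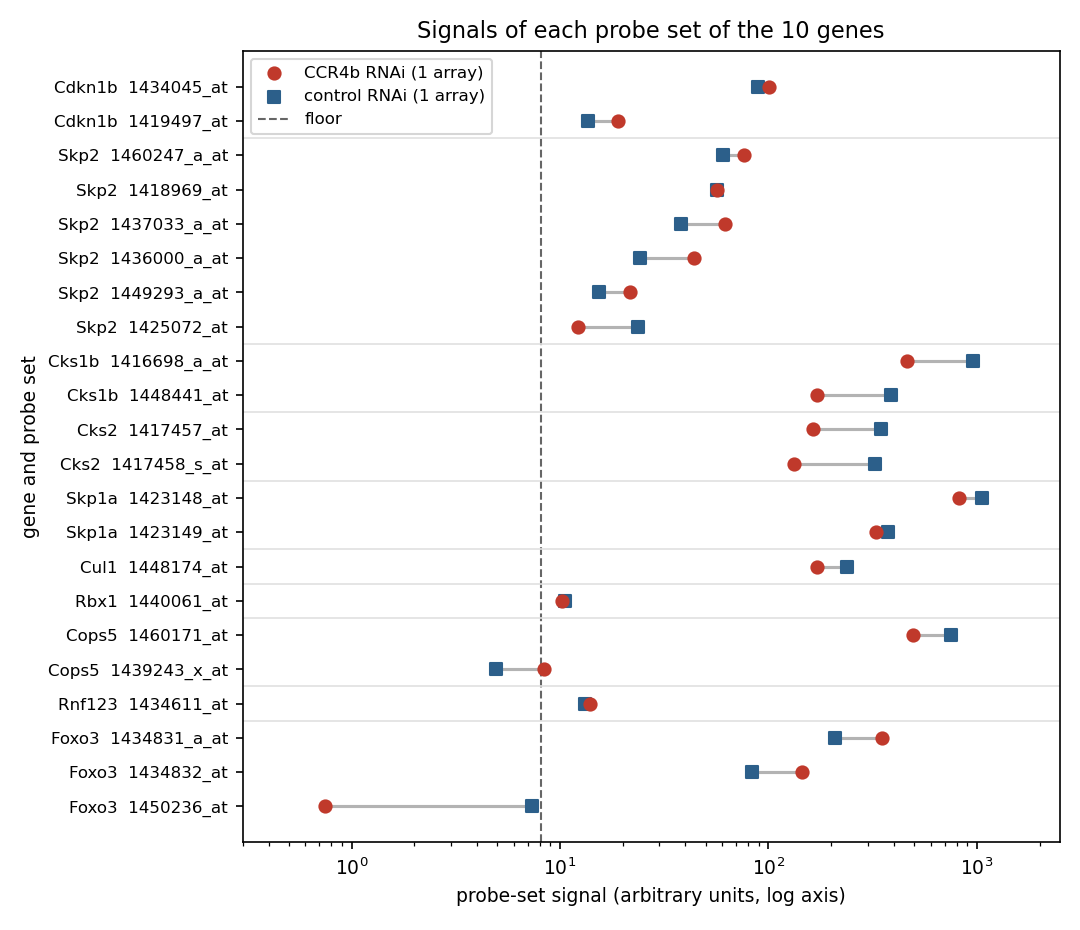
Signal of every single-gene probe set of the 10 genes (log axis, arbitrary units), with CCR4b RNAi as circles and control RNAi as squares, 1 array each, and the floor of 8.07 units as a dashed line. The circles lie left of the squares on all probe sets of Cks1b, Cks2, Skp1a and Cul1 and right of them on both Cdkn1b probe sets, while the 6 Skp2 probe sets go both ways.

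As a check of the labels, Cnot6l, the targeted gene, read 43.0 units in the CCR4b RNAi culture and 102 units in the control RNAi culture on its brightest probe set (2.38-fold lower). Fibroblast markers were bright in both cultures, with all 9 listed genes measured and summed signals of 19338 units after CCR4b RNAi and 17174 units in the control. Of the 9, 7 had ratios above 0, against 44.0% of all measured genes (median log2 ratio 0.37). Single markers differed: 1 of 9 was at least 1.5-fold higher (Col1a1, 1.52-fold), against 11.3% of all measured genes. This count was 4 with loess correction, 3 as the median over probe sets, 2 with quantile normalization and 0 with each array divided by its median. On the lower side 1 passed (Thy1, 130 units after CCR4b RNAi and 221 in the control, 1.70-fold), against 14.6% of all. All 4 endothelial markers stayed below the floor on both arrays, as did 3 of 4 epithelial and 2 of 5 blood cell markers, and Epcam read 29.5 units after CCR4b RNAi and 19.4 units in the control. All 3 measured blood cell markers were lower after CCR4b RNAi, against 56.0% of all measured genes. The lowest was Cd68, a macrophage marker, at 9.42 units after CCR4b RNAi against 24.0 units in the control (2.55-fold lower). Adgre1 read 9.13 units after CCR4b RNAi against 13.7 in the control. Both lay near the floor after CCR4b RNAi, and Csf1r had a log2 ratio of -0.07. The array medians were 8.34 units (CCR4b RNAi) and 7.81 units (control RNAi). In a culture measured in bulk, fewer cells in a given state and less RNA per cell cannot be told apart.

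Cdkn1b itself was slightly higher after CCR4b RNAi on both of its probe sets. The brighter probe set (1434045_at) read 101 units after CCR4b RNAi and 89.2 units in the control RNAi culture, a log2 ratio of 0.18. The dimmer one (1419497_at) read 18.9 units after CCR4b RNAi and 13.6 units in the control, a log2 ratio of 0.48. Both ratios had the same sign and were under 1.5-fold. Bright genes had ratios somewhat below 0 on this pair of arrays, so each ratio was also set against genes of like signal, in 10 classes of equal size. In the class of Cdkn1b, 1191 genes had a median log2 ratio of -0.14 and a robust SD of 0.43. The p27 ratio stood 0.32 above that median, at percentile 77.3 of its class, which is less than the spread among those genes. Its log2 ratio stayed above 0 under all 8 alternative ways of processing, between 0.086 and 0.33. Some of these could not move it: other floors, or leaving out probe sets ending in _x_at or _s_at, gave the same 0.18.

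Skp2, the F-box protein that selects p27, gave probe sets that disagreed. All 6 reached the floor in both cultures, and their log2 ratios spanned 1.82 units. The brightest (1460247_a_at) read 75.9 units after CCR4b RNAi and 60.5 units in the control, a log2 ratio of 0.33 that stood 0.47 above its class median, where the robust SD was 0.43. The 3 further probe sets whose identifiers end in _a_at, a suffix for probes shared by transcripts of one gene, were also higher: 1437033_a_at read 61.8 units after CCR4b RNAi against 37.9 in the control (1.63-fold higher). The next, 1436000_a_at, read 44.0 units after CCR4b RNAi against 24.2 in the control (1.82-fold higher), and 1449293_a_at read 21.8 against 15.4 units (1.41-fold higher). The remaining pair did not share this direction. Probe set 1418969_at read 56.4 units after CCR4b RNAi and 56.6 units in the control, and 1425072_at read 12.2 units after CCR4b RNAi and 23.7 units in the control (1.94-fold lower). Of 85 genes read by 6 or more such probe sets, 5, Skp2 included, had a range at least as wide, and the median range was 0.96. Skp2 therefore has no single direction here: its ratio depends on which probe set is read.

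The lowest ratios of the 10 genes were those of the CKS genes, which encode small CDK-binding proteins. CKS1, from Cks1b, is the cofactor with which SKP2 grips p27, and CKS2 is its close paralog. For Cks1b the brighter probe set (1416698_a_at) read 462 units after CCR4b RNAi and 961 units in the control (2.08-fold lower), and the dimmer one (1448441_at) read 171 units after CCR4b RNAi and 387 units in the control (2.26-fold lower). For Cks2 the values were 163 units after CCR4b RNAi and 348 units in the control on 1417457_at (2.13-fold lower). A second Cks2 probe set (1417458_s_at), of a kind that can read several transcripts, gave 133 units after CCR4b RNAi and 325 units in the control (2.44-fold lower). All 4 probe sets were thus more than 2-fold lower, with log2 ratios between -1.06 and -1.29. In their signal classes the brightest Cks1b and Cks2 probe sets stood at percentiles 1.59 and 3.61, and their log2 ratios minus the class median were -0.89 and -0.93, where the robust SDs were 0.36 and 0.41.

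Markers of proliferating cells moved with the CKS genes. Of 11 listed markers 9 were measured, and all 9 were at least 1.5-fold lower (median log2 ratio -1.30, range -1.92 to -0.66), against 14.6% of all measured genes, or 8 of 9 with quantile normalization and with loess correction. Their summed signal was 2084 units after CCR4b RNAi and 4567 units in the control. Mcm5, a subunit of the replicative helicase, read 113 units after CCR4b RNAi and 425 in the control (3.78-fold lower). Bub1, a mitotic checkpoint kinase, read 33.8 units after CCR4b RNAi and 122 in the control (3.60-fold lower). The part of this difference in the Cks1b and Cks2 ratios was not tested.

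**Figure D2:**
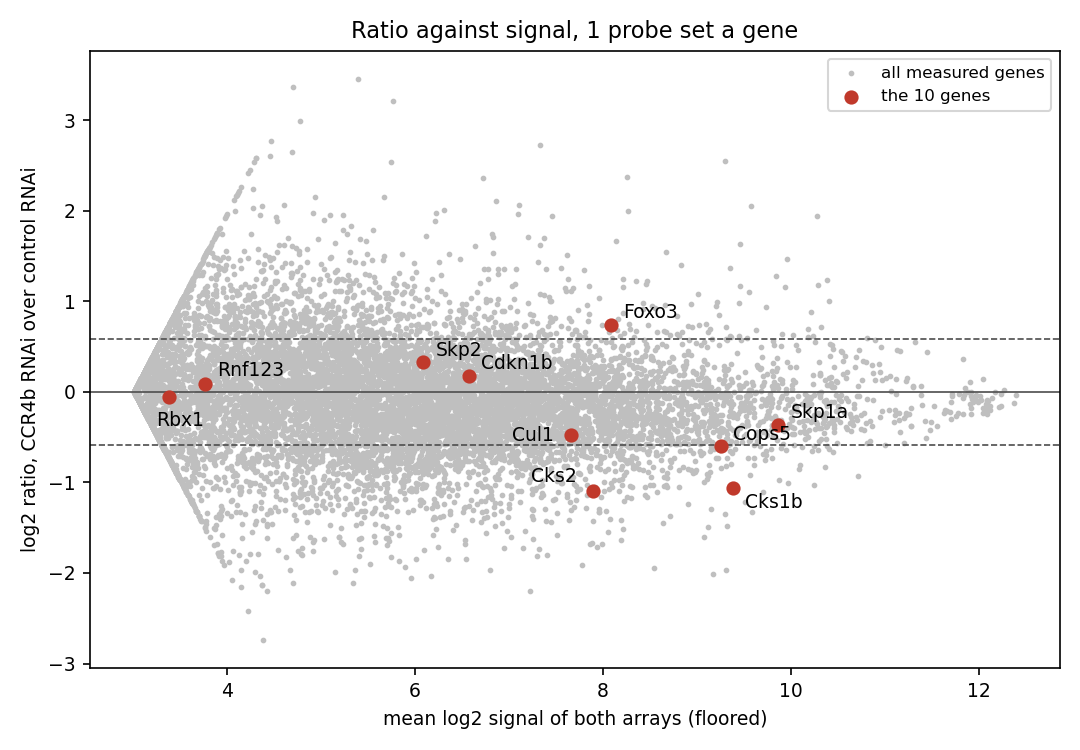
Log2 ratio of CCR4b RNAi over control RNAi against the mean log2 signal of both arrays, for the brightest probe set of each of 11915 measured genes (grey) and of the 10 genes (red, labelled), with dashed lines at 1.5-fold. Cks1b and Cks2 lie below the lower dashed line at log2 ratios of -1.06 and -1.09, Foxo3 lies above the upper line at 0.74, and Cdkn1b lies inside at 0.18.

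Since Cks1b and Cks2 lay lower together, the 250 bases before their annotated start sites are shown with those of Cdkn1b, which did not, as a view of the letters they share. The sequences are from RefSeq (GRCm38.p6), each on the strand of its gene. Capitals mark CCAAT, the letters of the CCAAT box bound by NF-Y, and TTTGAA, the cell cycle genes homology region (CHR) bound by the MuvB complex, on either strand.
Cks1b, chr3:89418292-89418541, minus strand: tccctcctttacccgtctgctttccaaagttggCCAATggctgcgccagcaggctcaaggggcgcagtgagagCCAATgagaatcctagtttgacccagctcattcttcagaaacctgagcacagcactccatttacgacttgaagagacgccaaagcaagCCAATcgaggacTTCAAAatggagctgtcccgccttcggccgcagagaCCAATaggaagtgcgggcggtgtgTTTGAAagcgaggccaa
Cks2, chr13:51644982-51645231, plus strand: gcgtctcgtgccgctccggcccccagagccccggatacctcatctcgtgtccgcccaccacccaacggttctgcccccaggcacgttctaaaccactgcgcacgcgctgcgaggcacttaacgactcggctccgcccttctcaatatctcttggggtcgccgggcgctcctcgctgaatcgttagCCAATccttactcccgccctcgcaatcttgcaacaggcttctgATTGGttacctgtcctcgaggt
Cdkn1b, chr6:134920151-134920400, plus strand: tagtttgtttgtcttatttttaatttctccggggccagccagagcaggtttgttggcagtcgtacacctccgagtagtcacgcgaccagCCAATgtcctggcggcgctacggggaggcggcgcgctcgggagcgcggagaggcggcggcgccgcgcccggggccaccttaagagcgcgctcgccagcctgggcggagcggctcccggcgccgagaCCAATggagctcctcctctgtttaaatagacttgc

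Windows of 300 bases, from 250 before to 50 after each start, were searched on both strands for these letters, for the E2F forms GCGGGAA (in 4.60% of all windows) and GCGCGAA (in 1.59%), and for the FOXO element GTAAACA. The Cks1b window held CCAAT 4 times and TTTGAA 2 times, in 1 case with its first base 17 bases before the start. The Cks2 window also held CCAAT 4 times, of which 2 lie after the start, outside the bases shown, and it held no TTTGAA. Of the 2 Skp2 windows, one held TTTGAA 2 times and CCAAT 1 time and the other held none of these letters. At least 4 CCAAT occurred in 1.06% of all 32851 windows, at least 3 in 3.37%, at least 1 in 37.4%, and at least 1 TTTGAA in 17.9%. The Cdkn1b window held CCAAT 3 times and no GTAAACA, letters that occurred in 3.65% of windows. Elsewhere GCGGGAA occurred 1 time each in the Foxo3 and Rbx1 windows, GTAAACA 1 time in that of Rnf123, TTTGAA 1 time in that of Skp1a and CCAAT 1 time in that of Rbx1, while GCGCGAA was in no window searched for these genes. CCAAT was added to the search after the sequences had been seen. These are matches of letters and say nothing about whether a factor binds there.

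The core of the ligase showed smaller differences, with Skp1a and Cul1 on the lower side and Rbx1 close to 0. SKP1, the adaptor between the F-box protein and the cullin, is encoded by Skp1a. Its brighter probe set (1423148_at) read 820 units after CCR4b RNAi and 1054 units in the control, and the dimmer one (1423149_at) read 329 units after CCR4b RNAi and 376 in the control, which are log2 ratios of -0.36 and -0.19. Cul1, which encodes the scaffold, read 171 units after CCR4b RNAi and 238 units in the control on its only probe set (1448174_at), a log2 ratio of -0.47. Rbx1, the RING subunit that recruits the ubiquitin-conjugating enzyme, had a single probe set of its own (1440061_at), close to the floor at 10.2 units after CCR4b RNAi and 10.6 units in the control. Relative to genes of like signal the ratios minus the class median were -0.19 for Skp1a, -0.31 for Cul1 and -0.16 for Rbx1, within the robust SDs of 0.36, 0.41 and 0.84. Brighter probe sets are annotated jointly to Rbx1 and Rbx1-ps, a pseudogene copy, so their signal cannot be assigned. The brightest of them read 953 units after CCR4b RNAi against 1116 in the control, and the next 893 units after CCR4b RNAi against 852 in the control. The other joint probe sets read 148 units against 151, 37.3 units against 38.8, and below the floor on both arrays.

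Cops5 encodes the catalytic subunit of the COP9 signalosome, which strips NEDD8 from cullins, and its protein (also called JAB1) has been reported to bind p27 and promote its nuclear export. Its bright probe set (1460171_at) read 496 units after CCR4b RNAi and 750 units in the control, a log2 ratio of -0.60 or 1.51-fold lower, just past the 1.5-fold threshold. This stood at percentile 11.0 of its class and was -0.43 after subtraction of the class median, where the robust SD was 0.36. The log2 ratio came back inside 1.5-fold with quantile normalization (-0.43), with loess correction (-0.43) and as the median over its probe sets (-0.27). The dim probe set (1439243_x_at) read 8.40 units after CCR4b RNAi and 4.91 units, below the floor, in the control.

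The other COP9 subunits lay on the same side as Cops5. All 8 measured genes had ratios below 0, against 56.0% of all measured genes, with a median log2 ratio of -0.46 where the classes of these genes had a median of -0.17. Of the 8, 3 were at least 1.5-fold lower, against 14.6% of all. These were Cops2 (300 units after CCR4b RNAi and 474 in the control), Cops6 (542 units after CCR4b RNAi and 841 in the control) and Cops8 (105 units after CCR4b RNAi and 161 in the control). The count of 3 was 0 with quantile normalization and with loess correction, whereas all 8 ratios stayed below 0 in each alternative run. The probe sets of Cops7b disagreed, with a log2 ratio of -0.36 on the brightest and 0.29 on another.

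Factors that attach NEDD8 to cullins or exchange their substrate receptors lay on both sides of 0. Of 13 measured genes 8 were below it, near the share of 56.0% of all measured genes. That count was 5 with quantile normalization, 4 with loess correction and 9 with each array divided by its median. Of the 13, 2 were 1.5-fold higher or more, a share near the 11.3% of all measured genes, and 0 were lower by that much, against 14.6% of all (median log2 ratio -0.11, which turned to 0.074 with quantile normalization, 0.073 with loess correction and 0.014 as the median over probe sets). With each array divided by its median, 1 gene passed 1.5-fold in place of 2. Both higher genes encode DCN1-like proteins, which act in cullin neddylation. Dcun1d3 read 44.1 units after CCR4b RNAi and 16.9 units in the control (2.61-fold higher), and Dcun1d2 read 60.5 units after CCR4b RNAi and 38.3 in the control (1.58-fold higher).

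Rnf123 encodes KPC1, the RING subunit of a cytoplasmic ligase that ubiquitinates p27 in G1 independently of SKP2. It was dim, at 14.0 units after CCR4b RNAi and 13.2 units in the control on its only probe set (1434611_at). The log2 ratio of 0.085 was -0.019 after subtraction of the class median and changed sign with other scalings, with values down to -0.026. Its partner KPC2, from Ubac1, read 104 units after CCR4b RNAi and 140 units in the control (log2 ratio -0.42), within the class spread of 0.44. Neither KPC gene passed 1.5-fold.

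Foxo3 had the highest ratio of the 10 genes. It encodes a forkhead transcription factor that induces Cdkn1b and is kept out of the nucleus by AKT. Its brightest probe set (1434831_a_at) read 351 units after CCR4b RNAi and 210 units in the control (1.67-fold higher), and the next (1434832_at) read 146 units after CCR4b RNAi and 83.4 units in the control (1.75-fold higher). The brighter ratio stood at percentile 96.6 of its class, 0.91 log2 units above the class median, where the robust SD was 0.41. A dim probe set (1450236_at) was below the floor on both arrays, at 0.746 units after CCR4b RNAi and 7.36 units in the control, and one annotated jointly to Foxo3 and Gm38485 read 9.36 units after CCR4b RNAi and 4.29 units, below the floor, in the control. Across all 8 alternatives the log2 ratio lay between 0.65 and 0.93.

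The other FOXO genes and the kinases that control them differed less on their brightest probe sets. Foxo1 read 33.8 units after CCR4b RNAi and 31.1 in the control (log2 ratio 0.12, with 0.93 on a dimmer probe set). Foxo4 read 36.0 units after CCR4b RNAi and 33.2 in the control (log2 ratio 0.12). Probe sets disagreed in both directions: Akt1 had a log2 ratio of -0.13 but 0.68 on another, and Insr 0.40 but -0.40 on another. Of 13 measured genes of FOXO factors and PI3K-AKT control, 0 were at least 1.5-fold different in either direction, against 26.0% of all measured genes. With median scaling, quantile normalization or loess correction 1 of them passed on the lower side, and without cross-hybridising probe sets 1 passed on the higher side.

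Genes known as FOXO targets were higher more often than lower. Of 20 measured targets, 16 had ratios above 0, against 44.0% of all measured genes, 4 passed 1.5-fold on the higher side (11.3% of all) and 0 on the lower (14.6% of all), and the median log2 ratio was 0.36. The 4 were Depp1, Bnip3, Fbxo32 and Txnip, the last named after its values were seen. Depp1, a FOXO-induced gene, read 240 units after CCR4b RNAi and 46.6 units in the control (5.15-fold higher). Bnip3, a mitophagy receptor that hypoxia also induces, read 530 units after CCR4b RNAi and 231 in the control (2.29-fold higher). Fbxo32, the ubiquitin ligase receptor atrogin, read 26.9 units after CCR4b RNAi and 13.2 in the control (2.03-fold higher). Another Fbxo32 probe set gave a log2 ratio of 0.58, under 1.5-fold. Txnip, a thioredoxin inhibitor, read 633 units after CCR4b RNAi and 384 in the control (1.65-fold higher). With quantile normalization and with loess correction 7 targets passed in place of 4. The list was drawn up with the Depp1 and Bnip3 values known, so its direction is not independent evidence.

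**Figure D3:**
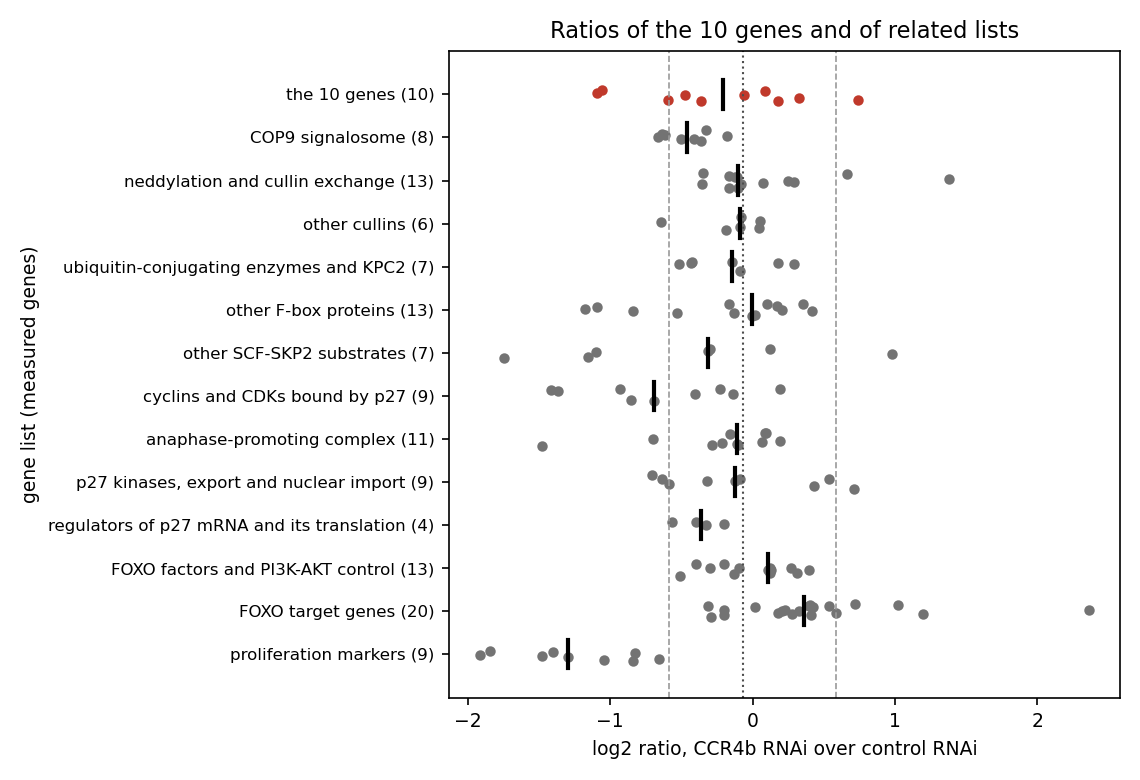
Log2 ratio of CCR4b RNAi over control RNAi for each measured gene of the 10 genes (red, top) and of 13 related lists (grey), with the number measured in brackets, the list median as a black bar, the median of all measured genes as a dotted line and 1.5-fold as dashed lines. Vertical scatter within a list has no meaning. All 9 proliferation markers lie left of the lower dashed line, and 16 of 20 FOXO targets lie right of 0.

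The cyclins and cyclin-dependent kinases that p27 binds were lower in 8 of 9 measured genes, against 56.0% of all, and 5 of the 9 were at least 1.5-fold lower, against 14.6% of all (median log2 ratio -0.69). With quantile normalization and with loess correction 7 of 9 were lower and 4 passed 1.5-fold. Ccna2, which encodes cyclin A, read 122 units after CCR4b RNAi and 325 in the control (2.67-fold lower). Cdk1, the mitotic kinase, read 260 units after CCR4b RNAi and 672 in the control (2.58-fold lower), and Ccne1, which encodes cyclin E, read 52.5 units after CCR4b RNAi and 100.1 in the control on a probe set open to cross-hybridisation (1.90-fold lower, log2 ratio -0.44 on another). Cdk2 itself was below the floor on both arrays. Without probe sets open to cross-hybridisation the count of 5 was 3.

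Other proteins that SCF-SKP2 is known to ubiquitinate went both ways at the mRNA level. Of 7 measured, 3 were lower by 1.5-fold or more (14.6% of all measured genes) and 1 was higher (11.3% of all). Without probe sets open to cross-hybridisation 2 were higher. With a floor at percentile 75, 5 were measured and 2 of them were lower. Cdkn1a, which encodes p21, the relative of p27, read 481 units after CCR4b RNAi and 245 in the control (1.97-fold higher), and Cdkn1c, which encodes p57, was below the floor on both arrays. The replication licensing genes Orc1 and Cdt1 were lower: Orc1 read 12.7 units after CCR4b RNAi and 42.8 in the control (3.35-fold lower), and Cdt1 read 204 units after CCR4b RNAi and 455 in the control (2.23-fold lower). Myc read 39.1 units after CCR4b RNAi and 83.7 in the control (2.14-fold lower).

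Genes that move p27 across the nuclear envelope or phosphorylate it were mixed, with 3 of 9 measured past 1.5-fold on the lower side (14.6% of all) and 1 on the higher (11.3% of all). The 3 lower genes encode transport factors. Xpo1, the export receptor, read 195 units after CCR4b RNAi and 318 in the control (1.63-fold lower), Nup50, a nucleoporin that binds p27, read 89.1 units after CCR4b RNAi and 139 in the control (1.56-fold lower, but a log2 ratio of 0.34 on another probe set), and Ran read 1670 units after CCR4b RNAi and 2509 in the control (log2 ratio -0.59). With quantile normalization and with loess correction none of the 9 was 1.5-fold lower and 2 were higher, and with the median over probe sets 1 was lower and 0 were higher. Yes1, a SRC family kinase, read 33.1 units after CCR4b RNAi and 20.2 in the control (1.64-fold higher, log2 ratio 0.15 on another probe set), and Uhmk1, a kinase of p27, read 77.4 units after CCR4b RNAi and 57.4 in the control (log2 ratio 0.43, but -0.33 on another probe set).

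Proteins that bind the p27 mRNA were measured for 4 genes, and 0 of them passed 1.5-fold in either direction, against 26.0% of all, or 1 on the lower side with median scaling. Ptbp1, reported to promote translation of p27, read 324 units after CCR4b RNAi and 480 in the control (log2 ratio -0.57, but 0.086 on another probe set). Elavl1, which encodes HuR, reported to repress it, read 202 units after CCR4b RNAi and 267 in the control (log2 ratio -0.40, and -0.65 on another probe set).

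**Figure D4:**
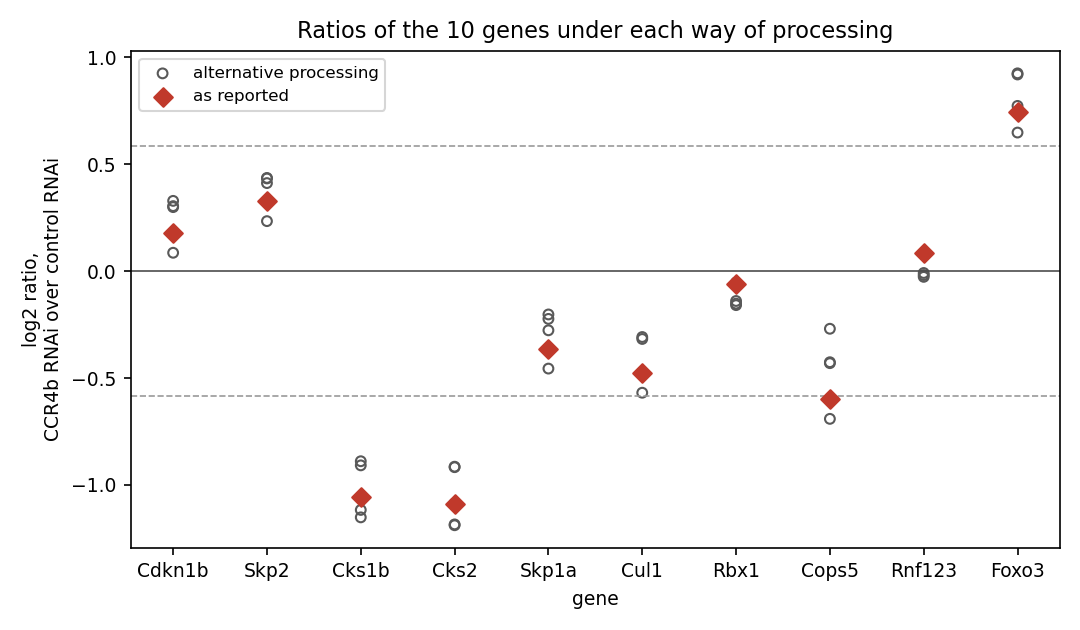
Log2 ratio of CCR4b RNAi over control RNAi for each of the 10 genes, as reported (diamonds) and under 8 alternative ways of processing (open circles), with dashed lines at 1.5-fold. Cks1b and Cks2 lie between -1.19 and -0.89 and Foxo3 between 0.65 and 0.93, whereas Cops5 crosses the dashed line and Rnf123 crosses 0.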

How the data were processed

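Probe-set signals of 2 Affymetrix mouse genome expression arrays were analysed, 1 from the CCR4b RNAi culture and 1 from the control RNAi culture, grouped by the knockdown label. The deposited values are intensities on a linear scale, computed by the authors in GCOS with a global normalization, per the series design text. The sources used here name no GCOS version, target value or detection call. The number of arrays limits the precision.

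Probe sets were named through the platform annotation. Of 45101, 34958 had 1 symbol, 932 several and 9211 none listed. Of those with 1 symbol, 34754 matched RefSeq (GRCm38.p6). Signals were used as deposited, raised to the floor (50th percentile, 8.07 units) and expressed as log2 of the CCR4b RNAi signal over the control RNAi signal. Each gene was represented by its brightest probe set (mean log2 signal), and genes were sorted into 10 signal classes, within which the median, the robust SD (scaled median absolute deviation) and percentiles were taken. No test was run. The calculation was tested on simulated data (Python 3.11.15, pandas 2.3.3, statsmodels 0.14.6).

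The 10 genes and the lists, 178 entries of which 167 have a probe set here, were chosen with earlier results of these data known. The rule named the 10 genes, Cnot6l, fixed partners of p27, and up to 3 genes per direction and list above the floor on both arrays and at least 1.5-fold different. A pair of arrays defines no pattern, so no genes of like pattern are named. Promoter windows came from RefSeq and existed for 9 of the 10 genes.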

Additional observations from a re-analysis of the deposited data

How the results depend on the processing

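The 8 alternatives were scaling each array by its median, quantile normalization, loess correction (span 0.3), a floor at percentile 25 or 75, log2 of signal plus 1 without a floor, the median of each gene's probe sets, and leaving out probe sets ending in _x_at or _s_at. Of 102 values recomputed for the 10 genes, 101 moved by less than 0.33 log2 units, the robust SD per probe set between probe sets of the same gene (for the counts of genes, by no more than 1.5 times). The exception was Cops5 as the median over its probe sets (-0.27), where its dim probe set enters. The limit of 0.33 is wider than the whole p27 ratio of 0.18. With either other floor, and without probe sets ending in _x_at or _s_at, each gene still measured kept exactly its reported ratio. Those runs could not move the ratios, because the brightest probe sets stayed the same. The count of genes at least 1.5-fold lower was 2 in place of 3 with quantile normalization, loess correction and the probe-set median, each time without Cops5. Rnf123 turned to -0.0085 with median scaling, -0.018 with quantile normalization and -0.026 with loess correction. With the higher floor, Rbx1 and Rnf123 were no longer measured, and gave no value. Over all genes, 3222 were at least 1.5-fold higher and 3516 lower with the lower floor, and 472 and 1025 with the higher floor, against 1352 and 1744 as reported. No paired analysis was possible because each group holds 1 array. For the same reason no array could be left out. Signal over background limits Rbx1 and Rnf123, whose own probe sets lay near the floor.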

Other observations

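Further parts of the ubiquitin machinery around SKP2 showed differences in a few genes. Of 13 other F-box genes, 3 passed 1.5-fold on the lower side (14.6% of all measured genes) and 0 on the higher (11.3% of all), with a median log2 ratio of -0.0027 that turned to 0.014 as the median over probe sets. Ccnf, which encodes cyclin F, read 30.5 units after CCR4b RNAi and 68.8 in the control (2.26-fold lower). Fbxo5, which encodes EMI1, an inhibitor of the anaphase-promoting complex, read 76.7 units after CCR4b RNAi and 163 in the control (2.13-fold lower). Fbxl12 read 27.7 units after CCR4b RNAi and 49.4 in the control (1.79-fold lower). Of the 6 other cullins measured, 1 passed 1.5-fold on the lower side, near the share of 14.6% of all, and 0 on the higher (11.3% of all). It was Cul5, at 21.2 units after CCR4b RNAi and 33.1 in the control (1.56-fold lower). With the higher floor 0 of 5 passed. Of 7 genes of ubiquitin-conjugating enzymes and KPC2, 0 passed 1.5-fold in either direction, against 26.0% of all measured genes. With median scaling 1 passed on the lower side.

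The anaphase-promoting complex, which with its activator CDH1 degrades SKP2 and CKS1 in G1, passed 1.5-fold at a share near that of all genes. Of 11 measured genes, 2 passed on the lower side, against 14.6% of all, and 0 on the higher, against 11.3% (median log2 ratio -0.11). With quantile normalization and with loess correction 1 passed and the median turned to 0.052 and 0.067. Cdc20, the mitotic activator and itself a proliferation marker, read 384 units after CCR4b RNAi and 1069 in the control (2.79-fold lower). Cdc23, a core subunit, read 93.4 units after CCR4b RNAi and 152 in the control (1.63-fold lower). Fzr1, which encodes CDH1, read 46.8 units after CCR4b RNAi and 52.1 in the control (log2 ratio -0.16).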
